A study of Mus musculus with 6 samples.

Results

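Gene expression in the stomach antrum was compared between Satin and Beige mice on 4 of the 6 arrays of the study, the 2 arrays titled Satin and the 2 titled Beige, chosen by title alone. The other 2 arrays hold antrum RNA of C57/BL6 mice (here BL6), the second control strain, and serve here as a reference. Satin mice carry a mutation of Foxq1 and Beige mice a mutation of Lyst, and both strains are known for their coats. Nothing in the sources used here gives the alleles, the genetic background, the age or the sex of the mice, or says whether the Satin mice also carried the beige mutation. All groups were untreated as far as the labels say. The design text names 2 mice per strain without tying an array to 1 mouse, so the spread behind each p-value is that between these arrays and may be technical.

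FOXQ1 is a forkhead transcription factor, and the study asked about gastric cell lineages in relation to it. LYST is a large cytoplasmic protein that governs the size of lysosomes and related secretory granules. The antrum is the lower part of the stomach. Its surface is lined by mucous (pit) cells that secrete the mucin MUC5AC and the peptide TFF1, its glands hold mucous cells that make MUC6 and TFF2, and its G cells release gastrin into the blood. A comparison of Satin with Beige sets a Foxq1 mutant against a coat mutant in another gene.

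The values are signals of 22626 probe sets, the groups of short probes that each report a transcript, in arbitrary linear units. Median signals were 49.5 and 49.1 for the Beige arrays and 74.15 and 58.6 for the Satin ones, so differences were taken after quantile normalization of log2(signal + 32). On that scale the median difference between Satin and Beige over all probe sets was 0.00, and a difference understates the change of a dim gene. Likeness between arrays did not simply follow strain. The correlation r was 0.944 for the Beige pair, 0.951 for the Satin pair and 0.920 for the BL6 pair. Between replicate 2 arrays it was higher, at 0.962 for Beige with BL6, 0.960 for Beige with Satin and 0.953 for Satin with BL6. The remaining pairs across strains lay between 0.914 and 0.943. Some arrays stood apart. Signal of the 5' control probe set of Gapdh divided by that of the 3' one, a sign of RNA quality, was 1.02 and 0.990 in Beige, 1.18 and 1.16 in Satin and 0.526 and 0.988 in BL6, so both Satin arrays lay above both Beige arrays and BL6 replicate 1 lay below the other 5. The mean of 13 exocrine pancreas genes was 7.67 and 9.98 in Beige, 7.42 and 11.84 in Satin and 7.23 and 12.87 in BL6, so the replicate 2 array was the higher one in each strain. Zg16, a secretory granule lectin, had a signal of 87.2 on Satin replicate 1 and of 3342.5 on Satin replicate 2. Fcgbp and Clca1, further mucus proteins of goblet cells, were lower on that array too, with 104.9 and 518.5 against 1659.6 and 3603.1. The part of the RNA ratio and of these genes in the results below was not tested. These 3 mucus genes were chosen after their values were seen.

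The tissue label was set against its markers. Gkn1, Gkn2, Tff1, Tff2 and Pgc, secreted products of gastric epithelium, lay between 13.05 and 13.29 on all 4 arrays, near the top of the range. Gast, the gastrin gene that marks the antrum, had signals of 3724.3 and 5086.6 in Beige and 1456.9 and 2580.4 in Satin. Acid-secreting parietal cells are typical of the gastric body, and the proton pump gene Atp4a was also bright, at 4008.1 and 3430.0 in Beige and 6840.5 and 4667.7 in Satin. Over 13 markers of squamous forestomach epithelium the mean was 6.06 and 6.75 in Beige and 6.45 and 6.38 in Satin, and 12 of them had signals of 262.3 or less on the 4 arrays. The other, Sprr1a, a protein of the cornified envelope, had Beige signals of 1584 and 1127.8 and Satin signals of 987.6 and 865.9, a difference of -0.87 (adjusted p = 0.373).

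Because FOXQ1 is a forkhead factor, the promoters of the genes with called differences were searched for the forkhead core motif TGTTTA on both strands. Each promoter window runs from 250 bases before to 50 bases after the RefSeq start on the mouse assembly GRCm38.p6. The windows of the gene that fell most and of the gene that rose most are shown here, 5′ to 3′ on the strand of the gene, with the motif in capitals.
Fabp2, chr3:122894822-122895121, plus strand: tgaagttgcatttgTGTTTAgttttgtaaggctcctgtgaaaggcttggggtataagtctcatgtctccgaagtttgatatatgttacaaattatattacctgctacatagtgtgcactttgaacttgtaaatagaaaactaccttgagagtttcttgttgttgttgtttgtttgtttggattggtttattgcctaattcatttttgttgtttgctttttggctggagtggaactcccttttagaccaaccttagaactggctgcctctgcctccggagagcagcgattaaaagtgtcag
Chil4, chr3:106219430-106219729, minus strand: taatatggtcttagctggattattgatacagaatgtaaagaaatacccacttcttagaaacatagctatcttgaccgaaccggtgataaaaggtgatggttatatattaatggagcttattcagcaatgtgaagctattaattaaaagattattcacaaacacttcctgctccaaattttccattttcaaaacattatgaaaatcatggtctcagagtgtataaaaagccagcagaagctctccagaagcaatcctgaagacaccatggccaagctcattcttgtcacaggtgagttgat
The Fabp2 window holds 1 match, which starts at position -236 relative to the transcription start, and the Chil4 window holds 0. Of all 32851 windows in the table, 4416 (13.4%) held the motif. The table held 21 of the 30 genes that fell, and 2 of their 22 windows (9.09%) had a match. It held 8 of the 12 genes that rose, and 0 of their 10 windows had one. A match is a run of letters and does not show binding.

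In all, 56 of 22626 probe sets (0.248%) differed between Satin and Beige at an adjusted p under 0.05 (limma, Benjamini-Hochberg over all probe sets), and 1740 had an unadjusted p under 0.05. Of these, 21 (0.0928% of all) were higher in Satin and 35 (0.155%) were lower. They named 42 genes, 12 higher and 30 lower, and 7 probe sets (3 higher and 4 lower) carried no single gene name. In each of the 56 the Satin and Beige arrays did not overlap, which held for 40.0% of all probe sets, and each differed by over 2-fold. Differences over 4-fold were seen in 35, with 16 higher and 19 lower. The balance of directions moved with the scaling. Without normalization 39 were higher and 18 lower, with the hybridization controls as the scale 56 and 25, and with median centring 32 and 35. The median of all probe sets was itself 0.26 and 0.24 higher in Satin in the first pair of these settings, so every direction here is one relative to the bulk of probe sets.

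**Figure D1:**
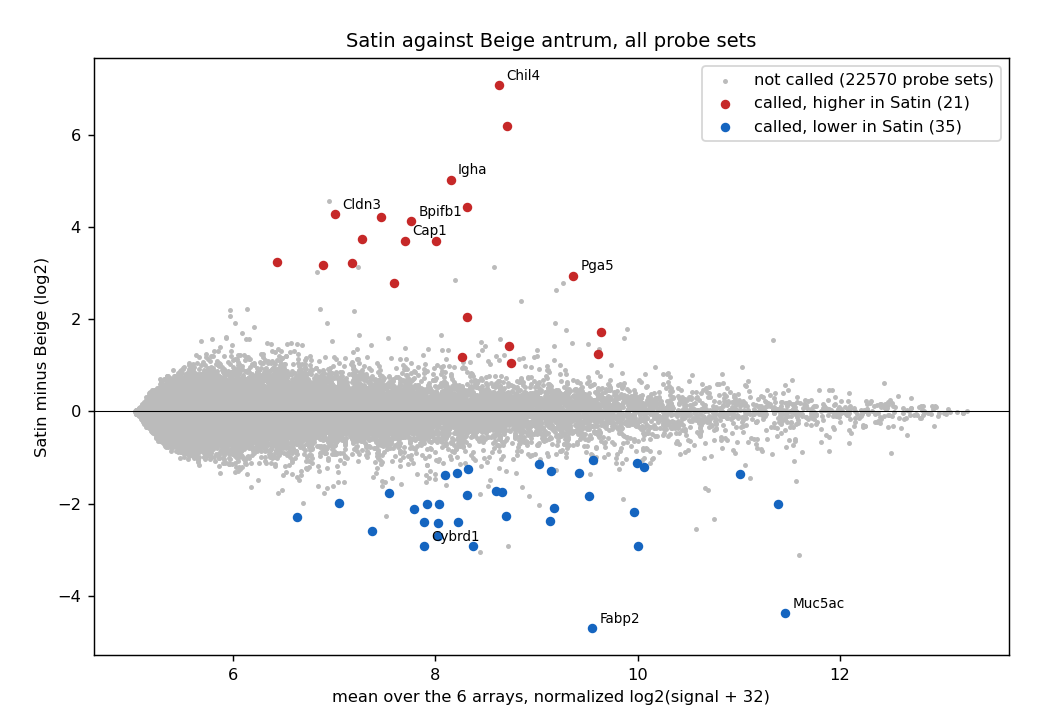
Each point is a probe set, with its mean normalized log2(signal + 32) over the 6 arrays on the x axis and Satin minus Beige (log2) on the y axis. Red points are the 21 called higher in Satin, blue points the 35 called lower, with Chil4 and Igha highest and Fabp2 and Muc5ac lowest among the called probe sets that carry a gene name.

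The count of calls rested on all 4 arrays. It was 5 without Beige replicate 1, 2 without Beige replicate 2, 6 without Satin replicate 1 and 22 without Satin replicate 2. A strain left with 1 array was then assumed to vary like the others. Each of the 56 kept its direction in every other setting that tested it. Chil4 and Muc5ac were the 2 probe sets called in all 18 other settings, the 6 omissions of an array among them. Fabp2 was called in 17 of the 18 and had an adjusted p of 0.0503 without Beige replicate 2. Without the intensity trend 8 stayed called, among them Cap1, Ctse and Rep15 beside these 3 genes. Of the 56, 39 stayed called as deposited, 43 with the hybridization controls and 45 with median centring. The 17 lost as deposited were all lower in Satin and included Rps9, Psmd6, Des, Ncmap, C1galt1, 1 probe set of Adi1, Psapl1, Pycard, Snhg6, Ly6d, Aldh3a2, Far1, Tmem189, Serinc3 and Epb41l4b.

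One of the largest falls was that of a gene of the surface mucous cells. Muc5ac, which encodes the gel-forming mucin of the gastric surface (measured by 1 probe set), had signals of 7485.4 and 7948.7 in Beige and of 471.8 and 435.0 in Satin. The arrays of each strain lay close together and far from those of the other. On the log2 scale Muc5ac fell by 4.38 (SE 0.19, adjusted p = 0.000169, n = 2 arrays per strain, limma), a 20.8-fold difference. Rep15, which encodes an effector of the vesicle protein RAB15, was bright in Beige at 1587.3 and 2024.6 and lower on both Satin arrays at 497.9 and 488.3. It fell by 2.18 (SE 0.13, adjusted p = 0.00114), a call lost without Beige replicate 1 (0.0581) or Beige replicate 2 (0.072). Adh7, a retinol and ethanol dehydrogenase of gastric epithelium, had signals of 824.8 and 995.9 in Beige and 336.2 and 186.5 in Satin. It fell by 2.09 (SE 0.22, adjusted p = 0.013) and its dimmer probe set differed by -0.82 (adjusted p = 0.383). The Adh7 call was lost without any of the 4 arrays in turn (adjusted p from 0.0506 to 0.343).

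Of 14 surface mucous cell markers measured, 2 fell (Muc5ac and Adh7), 0 rose and 12 did not pass, where 0.210% of all genes fell. The median was -0.23, against 0.00 over all genes, and it lay between -0.41 and -0.06 in the other settings. Without a pass, the epithelial keratin Krt20 differed by -1.70 (SE 0.25, adjusted p = 0.0538) and the granule protein Sytl2 by -0.75 (adjusted p = 0.121). Gkn1, Gkn2 and Tff1 are secreted by the same cells. They differed by -0.04, 0.00 and -0.01, each with an SE of 0.22, near the ceiling of the scale, which can hide a difference. Ctse, the aspartic protease cathepsin E of surface mucous cells, gave unequal values by probe set. Its bright probe set differed by 0.10 (adjusted p = 0.955), while a dimmer one, at 59.7 and 47.3 in Beige and 903.1 and 627.4 in Satin, rose by 2.78 (SE 0.21, adjusted p = 0.00376). That call was lost without Satin replicate 1 (0.0835), Beige replicate 1 (0.0597) or Beige replicate 2 (0.129). In these whole-tissue samples, fewer cells of a type and less RNA per cell cannot be told apart.

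Among 12 other mucins and mucus proteins 0 were called, with a median of -0.05. Muc1, a membrane mucin, differed by 0.15 and Muc5b, a gel-forming mucin that was dim in both strains, by 0.91 (adjusted p = 0.341). Of 15 genes of mucin O-glycosylation 0 were called on their brightest probe set, with a median of 0.09. As 0.282% of all genes were called, both lists would hold few or no calls at that share. C1galt1, the enzyme that builds the core 1 glycan, was lower on its second probe set, with signals of 398.1 and 816.1 in Beige and 188.1 and 218.5 in Satin. That probe set fell by 1.73 (SE 0.22, adjusted p = 0.0264) and the brighter one differed by 0.09. The C1galt1 call was lost without any 1 of the 6 arrays, with an adjusted p of 0.0515 and 0.0534 without a BL6 array and from 0.111 to 0.279 without a Satin or Beige array.

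The deep mucous cells of the antral glands were represented by 7 markers, of which 1 rose (0.0726% of all genes rose), 0 fell and 6 did not pass. Bpifb1, a secreted protein of mucous glands related to lipid-binding defence proteins, had signals of 74.9 and 41.4 in Beige and 3872.4 and 954.7 in Satin. Both Satin arrays were far above Beige, and they differed from each other. Bpifb1 rose by 4.12 (SE 0.57, adjusted p = 0.0401), and its second probe set differed by 4.57 (adjusted p = 0.0538). The call held without Satin replicate 2 (0.00952) and was lost without any 1 of the other 5 arrays (adjusted p from 0.0885 to 0.456). It was also lost in 5 further settings (up to 0.211). Dmbt1, a mucosal scavenger protein, differed by 1.54 without passing (adjusted p = 0.218). Tff2 and Pgc, at the top of the range, differed by -0.04 and 0.06. Of the 8 chief cell markers, Cpb1 and Clps are also in the exocrine pancreas list and Pgc is also in the deep mucous one. Among the 8, 1 rose. This was Pga5, a pepsinogen gene, at 357.8 and 275.6 in Beige and 3878.6 and 2797.0 in Satin. Its rise of 2.94 (SE 0.26, adjusted p = 0.00529) was lost without Satin replicate 1 (0.069), Beige replicate 1 (0.0581) or Beige replicate 2 (0.152). Cblif, the gene of gastric intrinsic factor, differed by 0.15 (SE 0.37) and Atp4a by 0.46 (SE 0.37). None of 12 parietal cell markers was called, and 11 of 12 lay above 0 with a median of 0.41, where 49.6% of all genes lay above 0.

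Defence and immune genes held the largest rise. Chil4, a chitinase-like lectin of mucosal surfaces and macrophages, was near the floor in Beige at 20.6 and 29.6 and among the brightest transcripts in Satin at 7124.5 and 8991.4. Its rise was 7.07 in log2 units (SE 0.27, adjusted p = 0.000112), 134-fold on the log2(signal + 32) scale. The other 4 chitinase genes measured did not pass, with Chil3, the nearest relative of Chil4, at 1.46 (adjusted p = 0.709) and the acidic chitinase Chia1 at -0.03. Igha, the heavy chain of immunoglobulin A, rose on all 3 of its probe sets by 5.02, 4.44 and 3.70 (adjusted p = 0.00474, 0.00553 and 0.0198). Its brightest probe set read 32.5 and 36.4 in Beige and 1922.4 and 1710.7 in Satin, with BL6 between them at 129.0 and 392.2. This call was lost without Beige replicate 1 (0.2) or 2 (0.202) and without Satin replicate 1 (0.0973) or 2 (0.0803), and those of the other 2 probe sets were lost in the same 4 omissions (adjusted p from 0.0788 to 0.449). Jchain, which joins immunoglobulin A into dimers, differed by 2.39 (SE 0.42, adjusted p = 0.0981), and Pigr, which carries them across epithelium, by 1.92 (adjusted p = 0.253). Other plasma and B cell genes did not pass. Ighm differed by -0.61, Sdc1 by -0.42 and Ms4a1 by 0.05, and the median of the 9 genes was 0.27.

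Lists of other immune cells held no called gene. Over all genes 0.282% were called, a share at which lists of this size would hold few or no calls. The medians were -0.38 for 15 macrophage and dendritic cell genes, -0.10 for 12 T and NK cell genes, 0.12 for 9 neutrophil genes and 0.15 for 10 mast cell genes. By mean level, 8 of the T and NK cell genes, 4 of the neutrophil and 2 of the mast cell genes lay in the lowest 30% of probe sets. A difference can be hidden there. The neutrophil protein gene S100a8 read 5.2 and 10.7 in Beige and 149.3 and 162.1 in Satin, a difference of 1.91 (SE 0.35, adjusted p = 0.121). It passed without normalization and on the scale of the hybridization controls (adjusted p down to 0.0414). Of 15 antimicrobial and mucosal defence genes 1 rose, where 0.0726% of all genes rose. It was Bpifb1, the gene also called among the deep mucous cell markers. Of these 15 genes 12 lay above 0 with a median of 0.44, where 49.6% of all genes lay above 0. Of 19 MHC and interferon response genes 0 were called, and their median was 0.01.

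**Figure D2:**
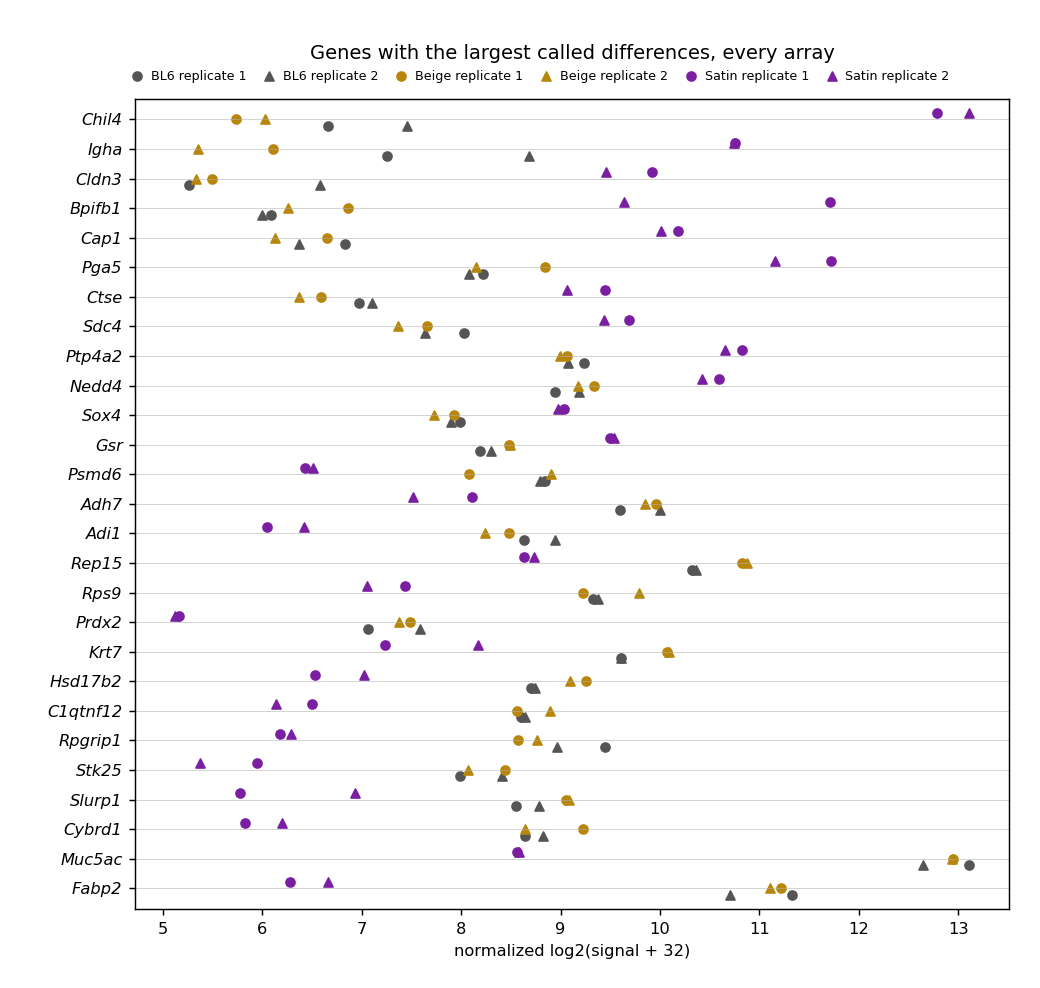
Each row is a gene, with the normalized log2(signal + 32) of its called probe set on each of the 6 arrays (circles replicate 1, triangles replicate 2). In every row the Satin arrays (purple) lie apart from the Beige arrays (gold), and the BL6 arrays (grey) lie on the Beige side except for Igha.

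Fabp2, an intracellular fatty acid binding protein best known from the small intestine, showed the largest fall. Its signals were 2142.3 and 2409.6 in Beige and 65.0 and 79.7 in Satin. It fell by 4.70 (SE 0.23, adjusted p = 0.00027), a 26.0-fold difference. Of 20 intestinal epithelium genes measured Fabp2 was the 1 that fell, 0 rose, and the median was -0.22, where 0.210% of all genes fell and 0.0726% rose. The intestinal regulators Cdx1 and Cdx2 lay near the floor, between 5.04 and 5.25 on the 4 arrays. Rbp2, an intestinal retinol binding protein, differed by -1.23 (adjusted p = 0.217), and Fabp1, the related liver-type protein, by 0.81 (adjusted p = 0.813).

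Further genes of transport, junctions and structure fell or rose. Cybrd1 and Cldn3 were each the 1 called gene of their list, where 0.282% of all genes were called. Krt7 was in none of the lists. Cybrd1, a ferric reductase of iron uptake, read 481.1 and 408.3 in Beige and 36.2 and 45.4 in Satin. It fell by 2.92 (SE 0.24, adjusted p = 0.00434), a call lost without Satin replicate 1 (0.0674), Beige replicate 1 (0.0894) or Beige replicate 2 (0.072). The other 9 iron genes did not pass, and the iron importer Slc11a2 and exporter Slc40a1 differed by -0.03 and 0.00. Cldn3, a claudin of tight junctions, was called on all 4 of its probe sets, with rises of 4.28, 4.22, 3.73 and 3.23. The first of these read 11.3 and 8.2 in Beige and 1227.8 and 835.6 in Satin (SE 0.42, adjusted p = 0.00868). Each of the 4 Cldn3 calls was lost without any 1 of the 4 Satin and Beige arrays (adjusted p from 0.103 to 0.653). The other 14 tight junction genes did not pass, among them Ocln at 0.75 and Cldn18, the main gastric claudin, at 0.47. Of the 15 genes in that list 11 lay above 0, with a median of 0.22, where 49.6% of all genes lay above 0. Krt7, a simple epithelial keratin, read 905.0 and 1197.4 in Beige and 165.2 and 316.8 in Satin. It fell by 2.38 (SE 0.27, adjusted p = 0.0174), a call kept without Satin replicate 2 (0.00952) and lost without Satin replicate 1 (0.0506), Beige replicate 2 (0.272) or Beige replicate 1 (0.424).

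The other genes that rose have roles in the cytoskeleton, signalling and redox balance. Cap1, an actin-recycling protein, read 62.9 and 34.4 in Beige and 1455.3 and 1211.5 in Satin. It rose by 3.70 (SE 0.25, adjusted p = 0.00215), and its second probe set rose by 3.17 (adjusted p = 0.0197). The first of these calls was lost without Beige replicate 2 (0.072) or Satin replicate 1 (0.0674). The second was lost without any 1 of the 4 arrays (adjusted p from 0.0783 to 0.315). Sox4, a transcription factor of progenitor cells, rose by 1.17 (SE 0.16, adjusted p = 0.0366), and its 5 other probe sets differed by 0.33 to 1.31. Gsr, glutathione reductase, rose by 1.04 (SE 0.14, adjusted p = 0.0345), with 0.53 on its brighter probe set. Sdc4, a cell surface syndecan, rose by 2.05 (adjusted p = 0.00868), Nedd4, a ubiquitin ligase, by 1.25 (0.0245), and Ptp4a2, a tyrosine phosphatase, by 1.72 (0.00434). For these 3 another probe set differed in the opposite direction, by -0.55 for Sdc4, -0.02 for Nedd4 and -0.49 for Ptp4a2. For Ptp4a2 that was its brightest probe set, and the call lay on a dimmer one. Without any 1 of the 4 arrays Sdc4, Nedd4, Sox4 and Gsr lost their calls (adjusted p from 0.0844 to 0.456), and Ptp4a2 kept its call without Satin replicate 2 alone (0.0426).

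Enzymes of steroid, lipid and aldehyde metabolism were among the genes that fell. Hsd17b2, which inactivates estradiol and testosterone, read 491.1 and 574.9 in Beige and 85.0 and 116.4 in Satin and fell by 2.40 (SE 0.20, adjusted p = 0.00434). Akr1e1, an aldo-keto reductase, fell by 1.98, Aldh3a2, the fatty aldehyde dehydrogenase, by 1.24, and Far1, which reduces fatty acyl groups to alcohols for ether lipids, by 1.21. The 4 other probe sets of Far1 differed by -1.04 to -0.48 and did not pass. Tmem189, which introduces the double bond of plasmalogen ether lipids, fell by 1.14 (SE 0.13, adjusted p = 0.0197), with -0.95 and -0.18 on its other probe sets. The last 4 of these lost their calls without any 1 of the 4 arrays (adjusted p from 0.141 to 0.456), Akr1e1 and Aldh3a2 also without a BL6 array (0.0509 to 0.0531). Hsd17b2 lost its call without Satin replicate 1 (0.0506), Beige replicate 1 (0.127) or Beige replicate 2 (0.152). Of 18 genes of alcohol, aldehyde and retinoid metabolism 1 fell, Adh7, where 0.210% of all genes fell. Of 18 genes of cholesterol and fatty acid synthesis 0 were called. The medians of these lists were -0.17 and -0.19. Aldh1a1, a retinal dehydrogenase, differed by 0.82 (adjusted p = 0.228).

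Among the secreted and surface proteins of the Ly6 family, Slurp1, Ly6g6c and Ly6d fell, with differences of -2.71, -2.01 and -1.29 (adjusted p = 0.0245, 0.0139 and 0.0333). Slurp1 read 419.2 and 570.3 in Beige and 33.2 and 106.9 in Satin, and its call was kept without Satin replicate 2 (0.00952) and lost without any 1 of the other 5 arrays (adjusted p from 0.0578 to 0.456). The calls of Ly6g6c and Ly6d were lost without any 1 of the 4 arrays (adjusted p from 0.0696 to 0.456). Psca, a further family member in the pit cell list, differed by -0.37 (adjusted p = 0.795). The family was picked after its values were seen and was not one of the lists. Its other members are not given here, so nothing is read about the family as a whole. Over all genes 0.210% fell. C1qtnf12, a secreted hormone-like protein, fell by 2.41 (SE 0.20, adjusted p = 0.00434), and its 3 other probe sets differed by -1.99, -0.98 and -0.97. It lost its call without Satin replicate 1 (0.0506), Beige replicate 1 (0.0783) or Beige replicate 2 (0.17). The kinase gene Stk25 fell by 2.60 (adjusted p = 0.0135). Rpgrip1, a ciliary protein gene, fell by 2.43 (adjusted p = 0.00434), with -0.40, -0.32 and -0.24 on its 3 dimmer probe sets. Without any 1 of the 4 arrays these calls were lost too (adjusted p from 0.0523 to 0.329).

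Ncmap, Oit1, Psapl1, Pycard, Snhg6, Serinc3 and Epb41l4b make up the rest of the named falls that were called on the brightest probe set, with differences of -1.84 to -1.05 and adjusted p from 0.00434 to 0.0465. Pycard encodes an inflammasome adaptor and Psapl1 a relative of prosaposin. The calls of all 7 were lost without any 1 of the 4 Satin and Beige arrays (adjusted p from 0.0608 to 0.518).

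Several calls were not shared by the other probe sets of the gene. Of the 42 genes, 18 had 1 probe set and 24 had several. In 3 of the 24, Igha, Cldn3 and Cap1, all probe sets were called. In 10 the others differed in the same direction, and in 11 at least 1 differed in the opposite direction. The call lay on a dimmer probe set in 7 genes. Rps9, a ribosomal protein gene, fell by 2.27 on 1 probe set (adjusted p = 0.00811) and differed by 0.39 on the brightest. Prdx2, a peroxiredoxin, fell by 2.29 (adjusted p = 0.0333) where the brighter probe set gave 0.33. Psmd6, a proteasome subunit, fell by 2.02 (adjusted p = 0.0307) where the brighter gave -0.21. Adi1, an enzyme of methionine salvage, fell by 2.12 and 1.38 on a pair of probe sets (adjusted p = 0.01 and 0.0236) and differed by 0.78 on another. The calls of Rps9, Prdx2, Psmd6 and Adi1 were lost without any 1 of the 4 arrays (adjusted p from 0.0573 to 0.474), that of Psmd6 also without a BL6 array (0.0662 and 0.0677). What sets the probe sets of a gene apart was not tested.

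**Figure D3:**
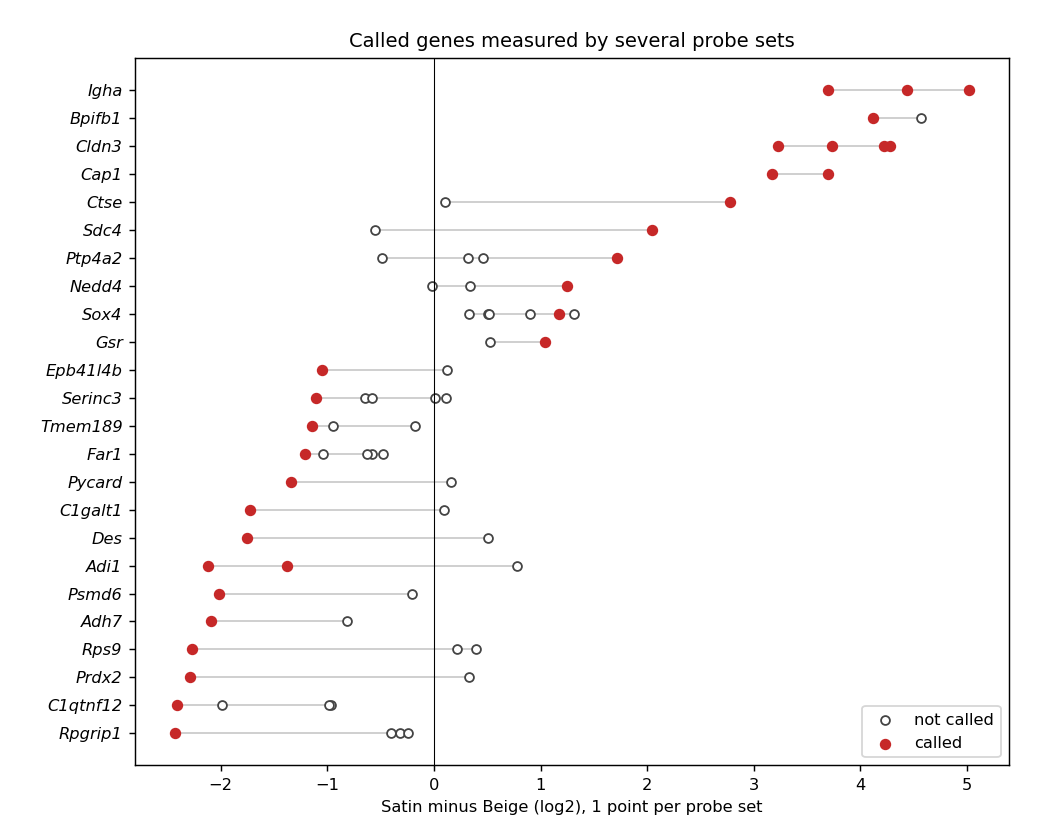
Each point is 1 probe set of the 24 called genes that have several, at its Satin minus Beige difference (log2), filled where called and open where not. Igha, Cldn3 and Cap1 are filled throughout, while open points of 11 genes lie on the other side of 0 from the called one.

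Smooth muscle genes lay lower in Satin as a list. All 15 measured were below 0, with a median of -0.91, against 0.00 over all genes, of which 49.6% lay above 0. The median ran from -1.07 to -0.71 in the other settings, relative to all probe sets. In 14 the Satin and Beige arrays did not overlap, where 40.0% of all probe sets did not. The list was chosen with earlier results of these data known. Its genes were measured on the same arrays and are not replicates, so these counts only describe it. Of the 15 genes 1, Des, was called, where 0.282% of all genes were. The desmin gene Des read 553.7 and 697.7 in Beige and 183.0 and 264.4 in Satin. It fell by 1.75 (SE 0.23, adjusted p = 0.0307), its dim second probe set differed by 0.51, and the call was lost without any 1 of the 4 arrays (adjusted p from 0.063 to 0.49). It was also lost as deposited, with the hybridization controls, without the trend and with the mean of probe sets (0.0743, 0.0744, 0.211 and 0.369). Smtn, a contractile cell cytoskeletal protein, differed by -1.11 (SE 0.16, adjusted p = 0.0538) and the smooth muscle myosin Myh11 by -0.99 (adjusted p = 0.54). The list mean was 9.90 and 10.14 in Beige, 9.08 and 9.25 in Satin, and 10.10 and 9.59 in BL6. Other cells of the wall had medians of -0.23 (16 fibroblast and matrix genes), -0.15 (11 enteric neuron and glia genes) and -0.06 (11 endothelial genes), with 0 called.

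Of 20 enteroendocrine genes 0 were called, 17 lay below 0 and the median was -0.43, between -0.52 and -0.26 in the other settings. Over all genes 49.6% lay above 0 and 0.282% were called. Gast differed by -1.50 (SE 0.28, adjusted p = 0.127). It passed when the lowest 30% of probe sets were left out (0.0462) and with the robust option (0.0365). Chgb, a granin of endocrine granules, read 468.9 and 943.7 in Beige and 139.4 and 249.4 in Satin, a difference of -2.03 (SE 0.40, adjusted p = 0.151). Chga differed by -0.95 (adjusted p = 0.268) and the somatostatin gene Sst by -0.85 (adjusted p = 0.694). Ddc, which makes amines such as serotonin, was one of 3 above 0, at 0.74 (adjusted p = 0.213).

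**Figure D4:**
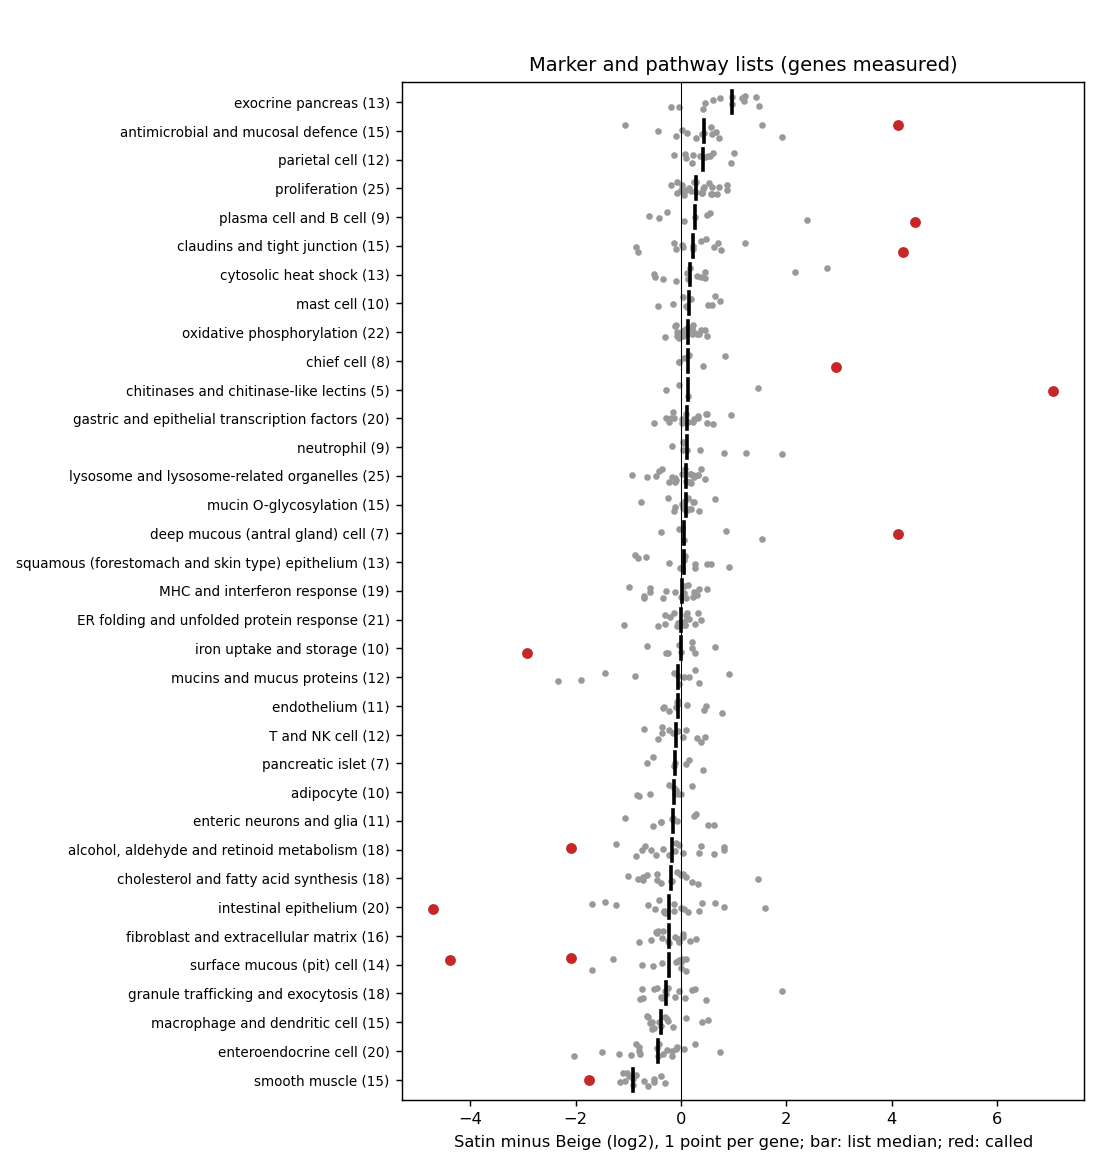
Each grey or red point is a gene, at its Satin minus Beige difference (log2) on its brightest probe set, in 35 lists ordered by their median (black bar). Red points are called genes, at most 2 in a list, and the smooth muscle list lies wholly below 0.

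LYST acts on lysosomes and secretory granules. Of 25 lysosome genes limma called 0, with 2 lower at an unadjusted p under 0.05 and a median of 0.10. Of 18 granule trafficking genes it called 0, with 1 higher and 3 lower at that unadjusted p and a median of -0.28. In the limma fit of the brightest probe set per gene, 1084 of all 12393 genes had such an unadjusted p. Nothing is read from these counts. Since 0.282% of all genes were called, lists of this size would hold few or no calls at that share. Rab3b, a small GTPase of regulated exocytosis, read 27.5 and 50.9 in Beige and 309.4 and 314.2 in Satin, a difference of 1.92 (SE 0.29, adjusted p = 0.058). It passed in 6 other settings (adjusted p down to 0.0137). Ctsh, a lysosomal cathepsin, differed by -0.93 (adjusted p = 0.275). Of 25 proliferation genes 21 lay above 0, with a median of 0.29 and 0 called, where 49.6% of all genes lay above 0. The inducible heat shock genes Hspa1b and Hspa1a gave differences of 2.78 (adjusted p = 0.0538, SE 0.41) and 2.17 (adjusted p = 0.0933, SE 0.38). Hspa1b read 147.1 and 244.6 in Beige, 2260.4 and 1650.7 in Satin, and 783.1 and 274.5 in BL6, and it passed in 11 of its 18 other settings. The 13 heat shock genes had a median of 0.17. In all, 486 different genes in 35 lists were measured and 10 were called, where 35 of all 12393 genes (0.282%) were. The lists were chosen with earlier results known, so nothing is read from that contrast.

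**Figure D5:**
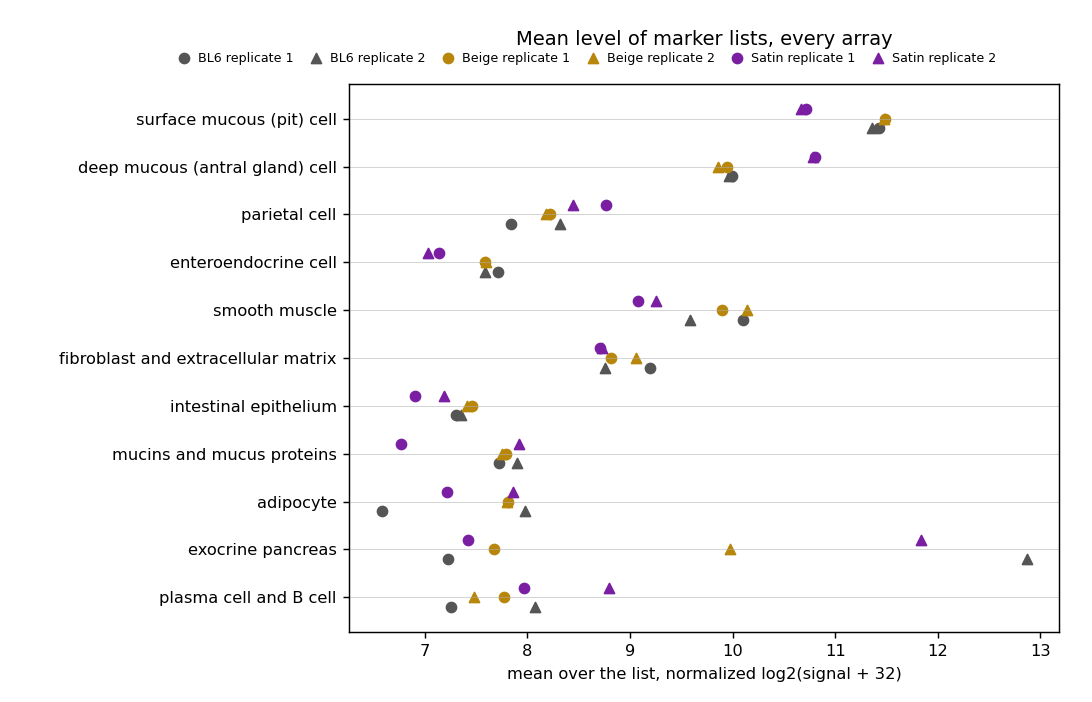
Each row is a marker list, with the mean normalized log2(signal + 32) of its genes on each array (circles replicate 1, triangles replicate 2). Smooth muscle lies lower on both Satin arrays (purple) than on the Beige arrays (gold), while exocrine pancreas is higher on the replicate 2 array of each strain.

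Foxq1 and Lyst were themselves measured. Foxq1 read 770.8 and 706.2 in Beige, 1728.3 and 1649.2 in Satin and 835.5 and 931.2 in BL6. Normalized values were 9.88 and 9.38 in Beige, 10.46 and 10.41 in Satin and 10.13 and 10.17 in BL6. On that scale both BL6 arrays lay on the Satin side of the midpoint. Satin minus BL6 was 0.29 (limma, adjusted p = 0.676) and Beige minus BL6 was -0.52. Between Satin and Beige the normalized difference was 0.81 (SE 0.18, adjusted p = 0.228). Foxq1 passed as deposited (1.16, adjusted p = 0.0495) and with the hybridization controls (1.13, adjusted p = 0.0414). In these settings the median of all probe sets was also higher in Satin, as given above. Lyst was dim, at 78.8 and 31.0 in Beige and 51.5 and 21.1 in Satin, a difference of -0.61 (SE 0.38, adjusted p = 0.781). A transcript level does not report a mutation within the gene, so neither value checks the labels.

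The BL6 arrays set these differences beside the second control strain. The comparisons share arrays, so their values are given side by side only. Satin against BL6 gave 48 called probe sets (0.212%), 18 higher (0.0796%) and 30 lower (0.133%). Beige against BL6 gave 0 (limma, adjusted p under 0.05), with 1149 at an unadjusted p under 0.05. With 2 arrays per strain, a count of 0 does not show that Beige and BL6 are alike. For 53 of the 56 Satin against Beige calls (94.6%) both BL6 arrays lay on the Beige side of the midpoint between the Satin and Beige means, and for 0 on the Satin side. Over all probe sets these shares were 31.3% and 25.7%, and in 43.0% the 2 BL6 arrays lay on different sides. The BL6 arrays entered the spread behind the calls, so probe sets with BL6 arrays far apart were less likely to be called. The shares of called and of all probe sets are thus not alike, and nothing is read from their contrast. The remaining 3 of the 56 calls are the Igha probe sets. Igha on its brightest probe set differed by 2.23 between Satin and BL6 (adjusted p = 0.103) and by -2.21 between Beige and BL6. Muc5ac read 7514.3 and 7502.6 in BL6, with -4.31 for Satin minus BL6 and 0.06 for Beige minus BL6. Fabp2 read 1927.7 and 1394.1, with -4.55 and 0.15. Chil4 read 61.4 and 111.8 in BL6, with 5.89 for Satin minus BL6 (adjusted p = 0.000232) and -1.18 for Beige minus BL6. The desmin gene Des differed by -1.31 between Satin and BL6 (adjusted p = 0.0979) and by 0.44 between Beige and BL6.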

How the data were processed

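RNA of the stomach antrum was extracted with Trizol and hybridized as biotinylated cRNA, per the labels' protocols, on 2 arrays for each of 3 strains. The deposited values are linear intensities, 1 per probe set and array. How they were computed and scaled is not given in the sources used here. Of the sample columns 0 were left unused, and 64 control probe sets were left out of the test.

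Signals were transformed to log2(signal + 32) and quantile normalized over the 6 arrays. limma 3.58.1 in R 4.3.3 (lmFit, eBayes with intensity trend, two-sided) was fitted on all 6 arrays with strain as the only factor, since 2 arrays per strain leave 3 residual degrees of freedom (7.91 after moderation). SE is the moderated standard error. Calls were made at an adjusted p under 0.05 (Benjamini-Hochberg over all 22626 probe sets). The number of arrays limits the precision.

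Probe sets were named from the platform annotation: 20380 had 1 gene symbol, 691 several and 1555 were not listed; 20351 were found in a RefSeq gene table of GRCm38.p6 and 0 symbols needed an update. In lists a gene is described by its brightest probe set (12393 genes). The lists held 571 members, of which 503 were measured. Muc6 is not analysed here. The comparison, members and lists were chosen with earlier results of these data known. Genes were named by rule: the 15 with the largest called difference in each direction, a panel of gastric genes with Foxq1 and Lyst, and of each list up to 4 called members or the 2 with the smallest p. Other genes were named after their values were seen, among them the remaining called genes and uncalled list members.

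Alternatives changed the pseudocount, scaling, low-signal filter, trend, arrays, replicate block and summary per gene.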

Additional observations from a re-analysis of the deposited data

How the results depend on the processing

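Each of the 56 called probe sets kept its direction in every setting that tested it. Of the named genes 0 changed sign with a call in the main fit or in the other setting. Uncalled named genes did change sign in some settings, among them Cblif (-0.41 to 0.72) and Xist (-0.39 to 0.20). The count of 56 became 104 when the lowest 30% of probe sets were left out, 98 with the robust option, 8 without the intensity trend and 24 with the mean of a gene's probe sets, which tests 12393 genes in place of 22626 probe sets. Leaving out 1 array gave 2 to 73 calls, with the low values without a Beige or Satin array, where a strain keeps 1 array. The count lay between 48 and 81 with the other settings of pseudocount, scaling and gene summary and in the fit of the 4 arrays. The causes of the other shifts were not tested. With the replicate number as a block 54 were called, 49 of them shared. In that fit Sox4, Gsr, Prdx2, Pycard, Aldh3a2, Far1 and Serinc3 did not pass and Hspa1b did. Deviations of same-numbered arrays correlated at 0.12 for Beige with BL6, 0.25 for Satin with BL6 and 0.18 for Satin with Beige, but the labels tie the numbers to nothing else and Satin and Beige share only 2, so they were not taken as pairs. The exocrine pancreas median of 0.97 ran from -1.26 to 3.55 and changed sign without Beige replicate 1 or Satin replicate 2, and the medians of chief cell, mucin, squamous, neuron, adipocyte, islet, T cell, MHC, ER, retinoid and iron lists, all within 0.17 of 0, changed sign in 1 to 8 settings. The added 32 makes differences of dim genes smaller, and the top of the range can hide a difference.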
